A study of Mus musculus with 12 samples.

Results

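The microRNAs miR-10a, miR-10b, miR-196a and miR-196b, which are encoded inside the Hox gene clusters, were examined in mouse retina and sclera after form deprivation. Members were taken by name from the array, with every arm of these 4 families, which gave 7 of the 696 mouse miRNA names that it carries: mmu-miR-10a-5p, mmu-miR-10a-3p, mmu-miR-10b-5p, mmu-miR-10b-3p, mmu-miR-196a-5p, mmu-miR-196a-2-3p and mmu-miR-196b-5p, written below without the species prefix. The animals were C57BL/6J mice that wore a frosted diffuser over the right eye from P24 to P34 (postnatal days), which gave 10 days of visual form deprivation. Control retina and control sclera came from the uncovered left eyes of the deprived mice, and myopic retina and myopic sclera from the covered eyes, all at P34. Each of the 4 groups had 3 Agilent one-colour miRNA arrays. The labels name single mice, while the methods describe RNA pooled from 3 eyes per array, so a replicate is called a pool here, and the same pool number marks retinas and scleras of the same animals.

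MicroRNAs are short RNAs that pair with messenger RNAs, mainly through their seed (bases 2 to 8 from the 5′ end), and lower the output of those messengers. Hox genes encode the transcription factors that give body segments their identity along the head-to-tail axis, and miR-10 and miR-196 genes lie between them and can repress Hox messengers. Expression of both families is typically found in trunk tissues and low in the forebrain, from which the retina develops, while the sclera is formed largely by cranial neural crest and mesoderm. In the RefSeq annotation of GRCm38.p6, Mir10a overlaps Hoxb3 and is followed by Hoxb4, and Mir10b overlaps Hoxd3 and Hoxd4. Mir196a-1 lies between Hoxb13 and Hoxb9, Mir196a-2 between Hoxc10 and Hoxc9, and Mir196b between Hoxa9 and Hoxa10.

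The 4 mature 5p sequences are shown because the members fall into 2 seed groups, and because the array has to separate near-identical partners within each. They are the RefSeq sequences of GRCm38.p6, 5′ to 3′, with the seed in capitals.
miR-10a-5p: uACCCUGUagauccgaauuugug
miR-10b-5p: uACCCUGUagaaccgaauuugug
miR-196a-5p: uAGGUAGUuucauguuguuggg
miR-196b-5p: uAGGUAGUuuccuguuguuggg
MiR-10a-5p and miR-10b-5p share 22 of 23 bases and differ by U12A, counted from the 5′ end with the miR-10a base first. MiR-196a-5p and miR-196b-5p share 21 of 22 bases and differ by A12C, with the miR-196a base first. Both substitutions lie outside the seed. Among the 528 array names with a mature sequence in the RefSeq table, no other name carried either seed. The 3p arms of miR-10a and miR-10b differed at 3 of 22 bases, 1 of them in the seed.

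The members were read by 2 or 4 probes each, and all of them by 20 spots per array. The miR-10b-5p probes were placed at chr2:74564133-74564153 (plus strand) of mm9 by the annotation of the array, and the miR-10a-5p probes at chr11:96178502-96178522 (plus strand). The miR-196a-5p probes had 2 placements, chr11:96126501-96126522 and chr15:102803796-102803817, since the same mature sequence comes from both genes, and their signal cannot be assigned to either. The miR-196b-5p probes were placed at chr6:52180097-52180116 on the minus strand. The longer probes of miR-10a-5p and miR-10b-5p, 21 bases each and complementary to bases 3 to 23 of the miRNA, are printed 5′ to 3′ with the 1 differing base in capitals, since the separation of the 2 miRNAs rests on it.
miR-10a-5p probe: cacaaattcggAtctacaggg
miR-10b-5p probe: cacaaattcggTtctacaggg

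Of the 7 names, miR-10b-5p was the only one detected, and it was detected in sclera alone. The scanner software marked a miRNA as detected on an array when a probe signal exceeded 3 times its error. MiR-10b-5p met this on 6 of 6 sclera arrays and on 0 of 6 retina arrays. The other 6 members met it on none of the 12 arrays, as did 253 of the 696 names (36.4%) in all. Detection on all sclera arrays and on no retina array was shared by 9 names, against 46 with the opposite pattern.

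**Figure D1:**
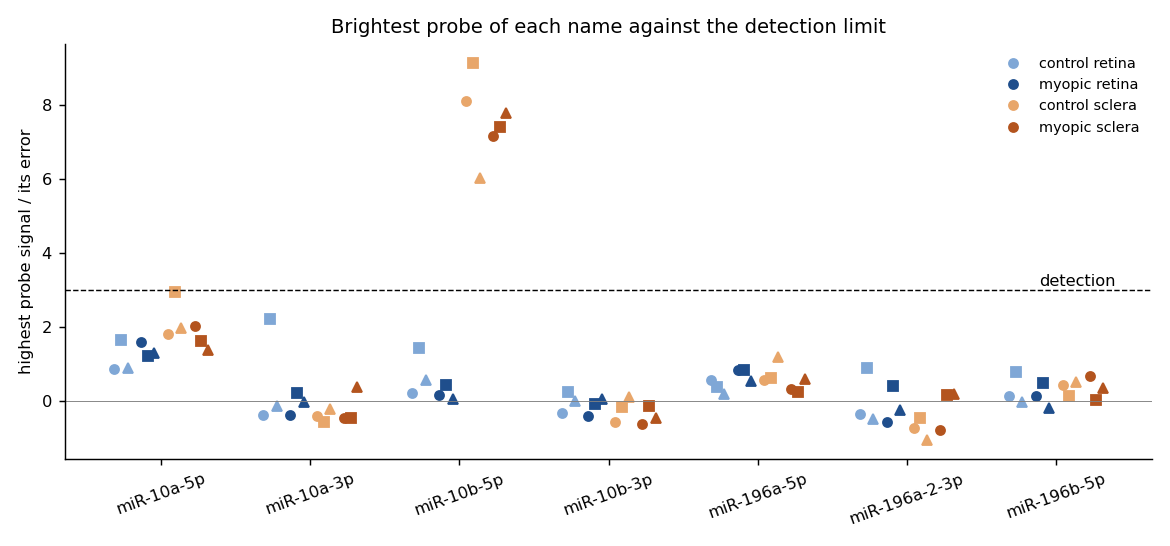
Highest probe signal of each of the 7 names divided by its error (vertical axis, a ratio) on the 12 arrays, coloured by group, with circles, squares and triangles for pools 1, 2 and 3. The dashed line marks the detection limit of 3, which miR-10b-5p passed on the 6 sclera arrays (6.02 to 9.13) and which miR-10a-5p came nearest to in control sclera pool 2 (2.96).

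The total gene signal of miR-10b-5p, the background-subtracted intensity summed over its detected probes, was 39.7, 58.2 and 12.4 in control sclera pools 1, 2 and 3. In myopic sclera it was 23.1, 31.1 and 25.4. In all 6 retina arrays it was listed at 0.1, the value that the software writes for an undetected miRNA. Thus every sclera array stood above every retina array, while the myopic sclera values lay within the range of the control sclera values. The scleral signals were weak and spread 4.71-fold between the highest and the lowest array. The lowest came from control sclera pool 3, an array that was dim as a whole: the 75th percentile of its signals over miRNAs detected on all arrays was 276, against 436 to 803 on the other sclera arrays.

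After quantile normalisation, which gives all arrays the same distribution of signals, miR-10b-5p stood at 6.24, 6.56 and 5.91 on the log2 scale in control sclera (6.24 ± 0.33, mean ± SD, n = 3). In myopic sclera it stood at 5.72, 6.22 and 6.28 (6.07 ± 0.30, n = 3). The 6 retina arrays were at the floor of -1. Normalisation narrowed the spread among the sclera arrays to 1.79-fold, and the groups of sclera arrays still overlapped. MiR-10b-5p was also the only member in the log2 table deposited by the authors, where it read 6.08, 6.45 and 5.71 in control sclera, 5.51, 6.06 and 6.12 in myopic sclera, and -1 in every retina sample.

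**Figure D2:**
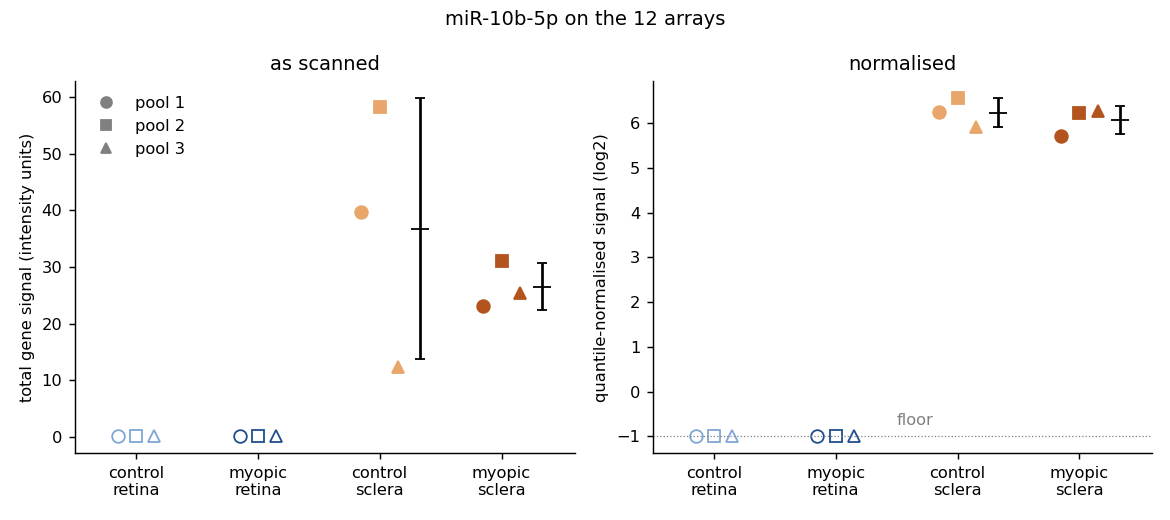
MiR-10b-5p on the 12 arrays, as total gene signal in intensity units (left) and as quantile-normalised log2 signal (right), with 1 symbol per pool, open where undetected, and the mean ± SD beside each sclera group. The 6 sclera arrays lie between 12.4 and 58.2 (left) and between 5.72 and 6.56 (right), with overlapping control and myopic values, and the retina arrays lie at the floor.

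To compare the tissues, control retina was set against control sclera and myopic retina against myopic sclera in limma, with 443 miRNAs detected on at least 1 array. A call needed a Benjamini-Hochberg adjusted p under 0.05 and a change of at least 2-fold. MiR-10b-5p passed this filter through the sclera arrays alone, and its 6 retina values were the imposed floor with no spread between them. The fitted differences of 7.24 (SE 0.19) and 7.07 (SE 0.19) on the log2 scale toward sclera, with limma adjusted p = 8.3e-10 in control eyes and 1.1e-09 in myopic eyes, therefore depend on where the floor was put and are given as a description. Calls toward sclera made up 23.0% of the miRNAs tested in control eyes and 26.4% in myopic eyes (calls toward retina 27.5% and 32.5%), so the call does not set this miRNA apart.

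A bound on the fold that does not use the floor was taken from the 21-base probe alone, a measure chosen with the data in view. Each retina array was given 3 times the error of that probe, the limit above which it would have counted as detected, which came to 5.74 to 8.90 in intensity units. With the signals as scanned, miR-10b-5p was at least 3.64-fold higher in control sclera than in control retina and at least 2.84-fold higher in myopic sclera than in myopic retina. With 75th percentile scaling, which raises the dimmer sclera arrays, these bounds were 7.47-fold and 6.48-fold. In whole tissue, more cells that express a miRNA and more of it per cell cannot be told apart. In addition, each group lay at the same array position on all 3 slides, so position and group cannot be told apart either.

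The tissue difference of miR-10b-5p was seen with each of its probes. The 20-base probe gave signals of 10.7, 13.9 and 4.70 in control sclera and 5.90, 7.81 and 6.39 in myopic sclera, against -0.70 to 0.41 over the 6 retina arrays. The 21-base probe gave 29.0, 44.3 and 12.4 in control sclera and 17.2, 23.3 and 19.0 in myopic sclera, against 0.12 to 3.41 in retina. With either probe, all 6 sclera arrays were above all 6 retina arrays, and both probes ordered the sclera arrays of each group in the same way. In control sclera pool 3 the shorter probe reached only 2.77 times its error and did not count as detected. The total gene signal of that array therefore holds the longer probe alone, whereas the other 5 sclera arrays hold the sum of both. At the level of spots, 20 of 20 were significantly above background on each sclera array, compared with 1 to 6 of 20 on the retina arrays.

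**Figure D3:**
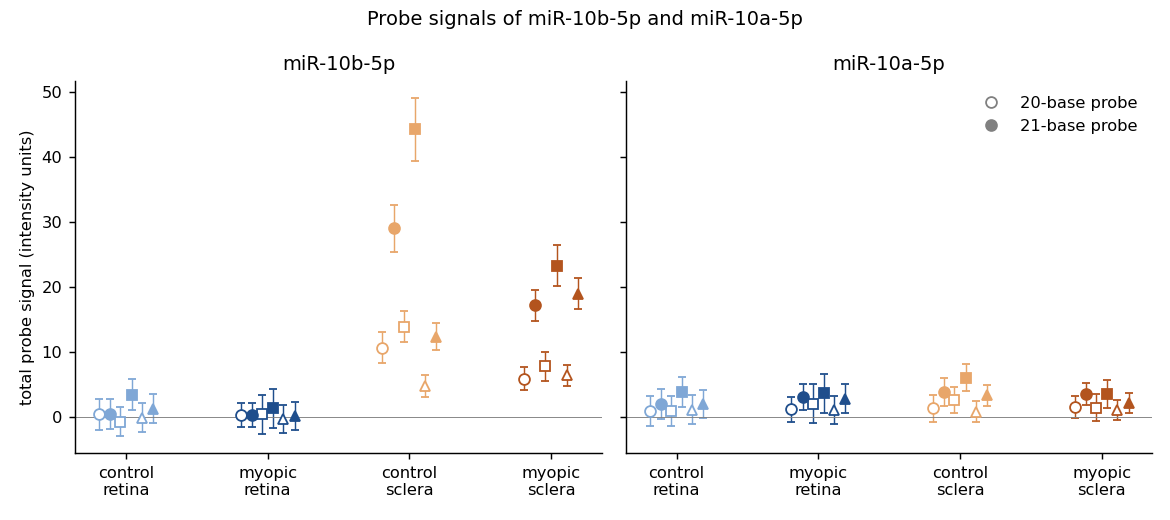
Total probe signal in intensity units (vertical axis) of the 20-base (open) and 21-base (filled) probes of miR-10b-5p (left) and miR-10a-5p (right) in the 4 groups, with 1 symbol per pool and bars for the error given by the scanner software. MiR-10b-5p reaches 4.70 to 44.3 in sclera and at most 3.41 in retina, whereas the miR-10a-5p signals of both tissues overlap below 6.08.

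To find out whether form deprivation altered miR-10b-5p, myopic and control tissue were compared. In sclera the difference (myopic minus control) was -0.16 on the log2 scale (SE 0.19, 95% interval -0.60 to 0.27), with a limma p of 0.41 and an adjusted p of 1. This fit called 0 of the 443 miRNAs in sclera, and 13 had an unadjusted p under 0.05. Its SE was pooled over all groups, and the retina values of miR-10b-5p were the floor without spread, so the interval above is too narrow. The same holds for the leave-one-out fits and for the difference between the tissues given below. Fitted with the sclera groups alone, the difference in sclera was again -0.16, with a wider interval (SE 0.25, 95% interval -0.83 to 0.50). Within pools, the normalised log2 value changed by -0.52, -0.34 and 0.37, so it was lower in the myopic sclera in pools 1 and 2 and higher in pool 3. The turn in pool 3 involved the dim control sclera array with a single detected probe. That array held the 21-base probe alone and its myopic partner the sum of both, so the rise compares unlike sums. Fits of total gene signals that include this control array carry the same inequality. The normalised log2 processed signals of the spots cover both probes. By these, control and myopic sclera read 5.34 and 4.66 in pool 1, 5.62 and 5.16 in pool 2, and 5.29 and 5.30 in pool 3. Leaving out myopic sclera pool 1 brought the difference to 0.013, and leaving out control sclera pool 3 brought it to -0.33 (95% interval -0.72 to 0.066, limma adjusted p = 0.81). With the processed signals of the spots it was -0.37 (95% interval -0.79 to 0.039 with the filter and -0.76 to 0.014 without), and -0.41 (-1.30 to 0.49) with neither filter nor normalisation between arrays. It was called in none of these, and each interval includes 0. In retina, miR-10b-5p was undetected in both groups and no change could be measured; 0.226% of the miRNAs tested were called there. The difference between the retinal and the scleral change was 0.16 (SE 0.27, limma adjusted p = 0.68), a value that comes from the sclera alone because the retina was at the floor, and 0.226% of the miRNAs were called in that comparison. No member was called in any of these 3 comparisons.

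MiR-10a-5p, the partner with the same seed as miR-10b-5p, stayed below the detection limit on all 12 arrays. Its 21-base probe, the brighter one, gave 3.84, 6.08 and 3.31 in control sclera and 3.50, 3.48 and 2.14 in myopic sclera. In control retina it gave 2.03, 3.85 and 2.00, and in myopic retina 3.09, 3.67 and 2.84. In these signals as scanned the groups overlapped, and only control sclera pool 2 was above every retina array. That array, at 2.96 times the error, was the nearest that any undetected member came to the limit, and it was also the array with the highest miR-10b-5p signal. At the level of spots, 11 to 17 of 20 were significantly above background on the sclera arrays, compared with 6 to 11 of 20 on the retina arrays. Whether miR-10b-5p contributed to the miR-10a-5p signal through the near-identical sequence was not tested.

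Since the undetected members have no total gene signal, they were also compared by the processed signals of their spots, without a filter. This setting was added with the data in view. Each spot signal was floored at 0.5 before the log2 values were averaged, so these comparisons use a floor too. With quantile normalisation, miR-10a-5p was then called higher in sclera, with a retina minus sclera difference of -2.20 (SE 0.22, limma adjusted p = 1.4e-05) in control eyes and -2.07 (SE 0.22, adjusted p = 1.8e-05) in myopic eyes. Without normalisation between the arrays the differences were -0.68 (SE 0.35, adjusted p = 0.15) and 0.03 (SE 0.35, adjusted p = 0.96), and neither was called. With normexp background correction they were -0.17 and -0.15 (limma adjusted p = 0.0014 and 0.0030), below 2-fold, and this setting called 11.8% and 14.5% of the names. Whether miR-10a-5p, with signals near background, was called thus differed between the settings. MiR-10b-5p was called in both comparisons with the processed spot signals, normalised or not, but not with normexp correction (-0.70 and -0.63). Processed spot signals called 38.8% of the 696 names with normalisation and 41.7% without it in control eyes, and 45.1% and 49.7% in myopic eyes.

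The miR-196 members gave no signal that stood out in either tissue. The brightest probe of miR-196a-5p, at 0.19 to 0.85 times its error in retina, was at 0.25 to 1.18 in sclera. MiR-196b-5p, with the same seed, ranged from -0.17 to 0.80 in retina and from 0.03 to 0.67 in sclera. MiR-196a-2-3p, the opposite arm of one miR-196a precursor, ranged from -0.56 to 0.90 and from -1.04 to 0.19. The ranges of all 3 names overlapped between the tissues, and total gene signals below the detection limit could not be compared. With the unfiltered spot signals, none of the 3 was called in either tissue comparison. With quantile normalisation, miR-196a-5p differed by -0.84 (retina minus sclera, limma adjusted p = 0.047) in control and -0.02 in myopic eyes. Without normalisation between arrays it differed by -0.08 and 0.72 (limma adjusted p = 0.034 in myopic eyes), so its sign was not stable.

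The 3p arms of the miR-10 genes, which are the less abundant products of many miRNA precursors, were undetected as well. MiR-10b-3p stayed between -0.61 and 0.24 times its error on the 12 arrays, also in sclera, where miR-10b-5p was detected. MiR-10a-3p had 1 array that stood apart in these ratios: control retina pool 2, where its brightest probe reached 2.21 times its error and 18 of 20 spots were significantly above background. On the other 11 arrays the ratio was at most 0.39, and no more than 2 of 20 spots were above background. Among them, control retina pool 3 had a mean spot signal of 247, with 1 of 20 spots above background and a ratio of -0.11. On control retina pool 2 the highest retinal ratio was also found for miR-10a-5p, miR-10b-5p, miR-10b-3p, miR-196a-2-3p and miR-196b-5p, and none of them passed the limit.

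The remaining Hox-cluster miRNA on the array, miR-615, was undetected in both of its arms on all 12 arrays. Thus, of the 9 names from Hox clusters, only miR-10b-5p gave a detected signal. The relatives of miR-10 outside the Hox clusters were then examined: miR-99 and miR-100, which are grouped with miR-10 by sequence, and miR-125, which is encoded beside them. Their seeds differ from that of miR-10, as miR-100-5p and miR-125b-5p show (RefSeq, seed in capitals).
miR-100-5p: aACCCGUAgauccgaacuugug
miR-125b-5p: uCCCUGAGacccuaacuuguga
MiR-100-5p shares a run of 11 bases with miR-10a-5p, guagauccgaa, and a run of 5 with miR-10b-5p, in which the substitution at base 12 breaks the longer run.

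Of 9 names of these relatives on the array, 7 were detected on at least 1 array, and 6 of those on all 6 arrays of each tissue. In control eyes 3 of the 7 were called higher in sclera and 0 higher in retina. The median retina minus sclera difference of the 7 was -0.97, against 0.30 over all 443 miRNAs. In myopic eyes 3 were called higher in sclera and 1, miR-99b-3p, higher in retina, with a median of -0.66 against 0.36. MiR-99b-3p was detected on 0 of 3 myopic and 1 of 3 control sclera arrays, so the size of its difference depends on the floor. The relatives called higher in sclera were miR-125b-5p, a miRNA abundant in brain, miR-100-5p and miR-125a-3p in both comparisons.

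In numbers, miR-125b-5p stood at 12.80 ± 0.05 in control retina and 15.13 ± 0.50 in control sclera on the normalised log2 scale (SD, n = 3). It was 2.33 higher in control sclera (SE 0.21, limma adjusted p = 8.6e-06) and 1.87 higher in myopic sclera (SE 0.21, adjusted p = 3.6e-05), or 1.27 and 1.06 higher with 75th percentile scaling. MiR-100-5p was 1.49 and 1.38 higher in sclera (SE 0.23 in both, adjusted p = 0.00027 and 0.00043). MiR-99a-5p, miR-99b-5p and miR-125a-5p were not called in either comparison. None of the 7 relatives was called between myopic and control tissue.

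The direction in which relatives were called depended on the scaling. Where arrays were not normalised, or were normalised within each tissue, 0 of the 7 relatives were called higher in sclera and 3 higher in retina, in control and in myopic eyes. Of all 443 miRNAs, 224 and 243 were then called higher in retina in control eyes, and 266 and 254 in myopic eyes. The median of the 7 stayed below that of all 443 under each of the 4 scalings, in control and in myopic eyes. Under these 2 scalings it was 0.23 against 1.58 and 0.53 against 1.76 in control eyes. In control eyes these scalings also moved the median of all 246 miRNAs with a detected signal on every array, from -0.24 to 1.17 and 1.43 (retina minus sclera). MiR-10b-5p was called higher in sclera under each of the 4 scalings. With its retina values at the floor, no scaling could have reversed its direction, so this is no contrast with the relatives.

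**Figure D4:**
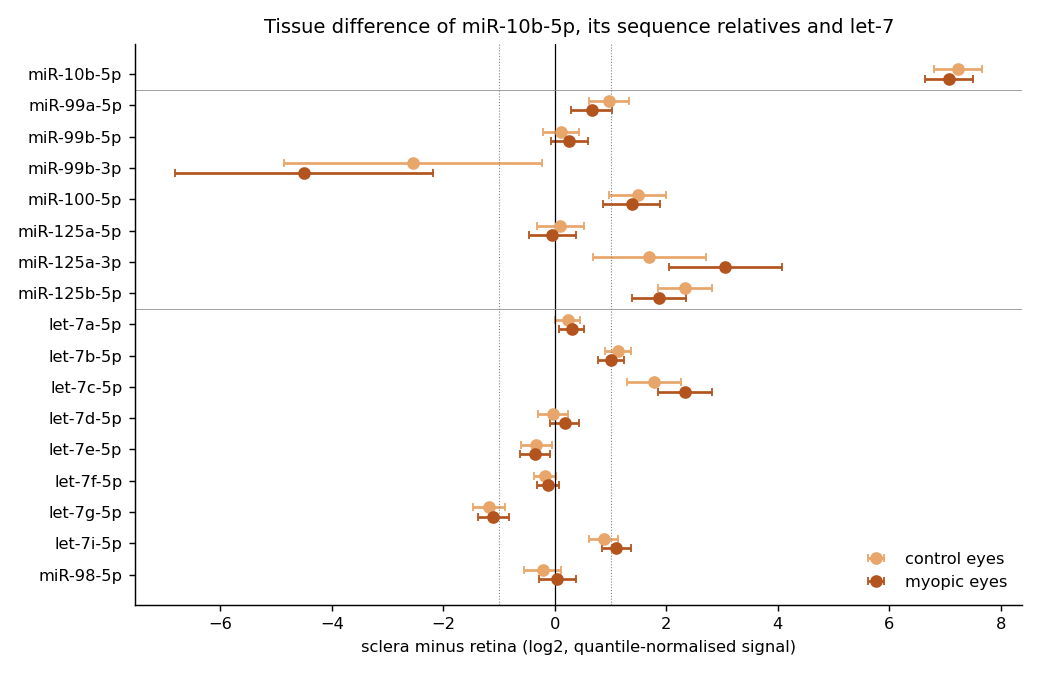
Sclera minus retina difference of the quantile-normalised log2 signal (horizontal axis) with 95% intervals for miR-10b-5p, its 7 detected relatives and 9 let-7 family members, in control and myopic eyes; dotted lines mark a 2-fold change. MiR-10b-5p lies at 7.24 and 7.07, a size set by the floor in retina, and the relatives lie between -4.50 and 3.06. The value of -4.50 is that of miR-99b-3p in myopic eyes, a size set by the floor in sclera.

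For miR-196 the let-7 family served as the comparison, because its seed holds 6 of the 7 bases of the miR-196 seed, shifted by 1 base, as let-7b-5p shows (RefSeq, seed in capitals).
let-7b-5p: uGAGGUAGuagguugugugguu
The run agguagu starts at base 2 of miR-196a-5p and miR-196b-5p and at base 3 of let-7b-5p, and it was found in 8 of the 9 family members on the array; let-7e-5p shares agguag. In contrast to miR-196, all 9 were detected on all 12 arrays. In control eyes 2 were called higher in sclera, let-7b-5p and let-7c-5p, and 1, let-7g-5p, was called higher in retina; in myopic eyes let-7i-5p was added to those higher in sclera. The median retina minus sclera difference of the 9 was 0.03 in control eyes and -0.18 in myopic eyes, against 0.30 and 0.36 over all 443 miRNAs. With 75th percentile scaling 1 was called higher in sclera in control eyes and 0 in myopic eyes, and without normalisation between arrays, or with it within each tissue, 0 in either. Under these 2 scalings 5 and 6 of the 9 were called higher in retina in control eyes, and 6 and 5 in myopic eyes. Of all 443 miRNAs, 224 and 243 were called higher in retina in control eyes, and 266 and 254 in myopic eyes, so these counts do not set the family apart. No member of the family was called between myopic and control tissue.

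The miRNAs whose pattern was most like that of miR-10b-5p were sought among 353 others detected on at least 6 arrays, by the root mean square difference of the centred log2 values over the 12 arrays. The 3 nearest were miR-503-5p (0.23), miR-450a-5p (0.31) and miR-133a-5p (0.33), and they were the 3 nearest with 75th percentile scaling too. All 3 were undetected on every retina array, so the likeness rests mostly on the floor. Across the 6 sclera arrays the normalised values ranged from 5.48 to 6.12 for miR-503-5p, from 5.23 to 6.49 for miR-450a-5p and from 5.61 to 6.47 for miR-133a-5p.

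**Figure D5:**
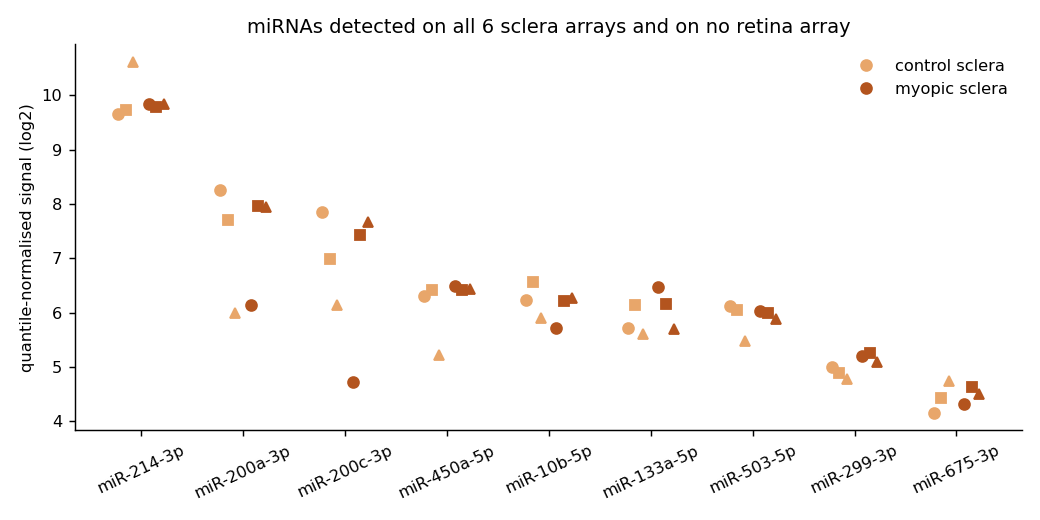
Quantile-normalised log2 signal (vertical axis) of the 9 miRNAs detected on all 6 sclera arrays and on no retina array, in control and myopic sclera, with circles, squares and triangles for pools 1, 2 and 3. MiR-10b-5p ranges from 5.72 to 6.56, and its control and myopic values overlap.

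The makeup of the tissue was checked with marker miRNAs, whose summed signals (75th percentile scaled, detected miRNAs only) differed between the tissues. The 8 miRNAs of retinal neurons and photoreceptors summed to 153300 to 190300 in retina and 2525 to 13340 in sclera, and all 8 were called higher in retina under the 4 scalings, although 7 of them were detected on all sclera arrays. The 5 miRNAs of mesenchyme and fibroblasts summed to 72.6 to 256 in retina and 13050 to 15810 in sclera, and all 5 were called higher in sclera under the 4 scalings. MiR-214-3p, one of these, was undetected in retina. The sclera samples also held signal of skeletal muscle (4 miRNAs, 3043 to 5788 against 181.7 to 342 in retina) and of surface and lens epithelium (6 miRNAs, 1030 to 8295 against 76.6 to 3685), the latter with miR-200a-3p and miR-200c-3p undetected in retina. The epithelial sums were 76.6 to 3685 in control retina and 400.5 to 457.8 in myopic retina. Under the 4 scalings, 3 or 4 of the muscle and 4 or 5 of the epithelial markers were called higher in sclera, and 0 higher in retina.

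Further, the markers of endothelium (2 miRNAs, 2788 to 3837 against 920 to 1104), erythroid cells (2 miRNAs, 792 to 1078 against 186 to 308) and leukocytes (5 miRNAs, 613 to 733 against 61.8 to 80.9) summed higher in sclera, whereas those of pigment cells (2 miRNAs) summed to 12550 to 16370 in retina and 4638 to 10640 in sclera. Without normalisation between arrays, 0 of the endothelial and 0 of the erythroid markers were called higher in sclera. Of the 5 leukocyte markers, 3 were called higher in sclera and 0 higher in retina with quantile normalisation, in control and in myopic eyes. Without normalisation between arrays these counts were 2 and 1. Between control and myopic sclera the mesenchymal sums were 13050 to 14070 and 15170 to 15810, and the muscle sums were 3253 to 4598 and 3043 to 5788. The part of these cell types in the tissue difference of miR-10b-5p was not tested.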

How the data were processed

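MiRNA expression was measured on 12 Agilent mouse miRNA arrays, 1 for each pool of 3 eyes. The authors deposited the scanner output of every array as background-subtracted intensity values made with Agilent Feature Extraction (version 11.0.1.1 in the file headers, array annotation of mm9), without normalisation between arrays. The authors also deposited a log2 table of the same arrays, and the submitters' processing notes name Partek 6.6. It holds 437 mouse miRNAs and correlated at 0.999 with the log2 values computed here, which settles its scale and direction. The methods mention that absent and outlying features were taken out, without a definition. Tested on the files, a miRNA was marked as detected where a probe exceeded 3 times its error, in all 8352 combinations of name and array. No mouse spot was saturated.

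Total gene signals were floored at 0.5, quantile normalised over 696 names and transformed to log2. Processed spot signals were floored at 0.5 for each spot and averaged on the log2 scale. The 443 miRNAs detected on at least 1 array were fitted in limma 3.58.1 (R 4.3.3) with 4 groups in 1 model (8 residual degrees of freedom). P-values are two-sided and adjusted over all 443. Figures were drawn with matplotlib 3.10.9 in Python 3.11.15. The precision is limited by 3 arrays per group. The alternatives changed the normalisation, floor, background correction, filter, spread model, weights and replicates. Coordinates are those of mm9 in the array annotation, and mature sequences are from RefSeq (GRCm38.p6). The members, marker lists and relatives were chosen with earlier results of these data known, and all 7 members are described whatever their values.

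The labels give both eyes and tissues of an animal 1 number, so that equal pool numbers pair the samples. Deviations from the group means correlated at 0.38, -0.46 and 0.59 within the 3 retina pairs and at -0.14, -0.16 and -0.00 within the 3 sclera pairs, over 246 miRNAs. The methods name no block, and the fit with pool number as a block, which is also the slide, was an alternative.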

Additional observations from a re-analysis of the deposited data

How the results depend on the processing

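The call of miR-10b-5p as higher in sclera was kept in control and in myopic eyes under every alternative that gave it a value, except normexp background correction, where the retina minus sclera differences were -0.70 and -0.63 (under 2-fold, adjusted p = 2.4e-06 and 4.9e-06 with the filter and 4.4e-06 and 8.5e-06 without it) and 0 members were called. The processed spot signals without a filter called 2 members in each tissue comparison, miR-10b-5p and miR-10a-5p. Leaving out 1 array at a time, the differences ranged from -7.50 to -7.03 in control eyes and from -7.32 to -6.87 in myopic eyes, with 1 member called throughout. In all fits of total gene signals the retina values of miR-10b-5p stayed at the floor. Its direction there was fixed in advance, and this stability adds no support. The processed spot signals were floored at 0.5 as well, which is -1 on the log2 scale. With them the normalised retina values of miR-10b-5p were -0.18 to 0.19, so the size of those differences also depends on a floor. Restricting the fit to miRNAs detected on all arrays left no member to test. The scleral change with deprivation ranged from -0.33 to 0.013 when 1 array was left out and its sign turned only without myopic sclera pool 1 (0.013), as did that of the difference between tissues (-0.013 to 0.33). That fit included control sclera pool 3, whose total gene signal held 1 probe only. No alternative called a member between myopic and control tissue, but the 6 undetected members had values that could differ only with the unfiltered spot signals, processed or normexp corrected. When pool numbers entered the fit as a replicate block, 1 member was called in each tissue comparison and 0 in the others, so that the pairing changed no call of a member, while the number of miRNAs called for the difference between tissues went from 1 to 0. The within-array comparison of paralogs was not run, since only 1 of each pair, or neither, was detected.

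The shares of miRNAs called over the whole array also moved. In the tissue comparisons normexp gave 82 and 101 calls against 224 and 261, and the filter on all arrays 128 and 139. In the retina, array weights gave 138 calls and leaving out control retina pool 1 gave 122 against 1, and leaving out myopic retina pool 3 gave 13; for the difference between tissues these gave 130, 112 and 9 against 1, and the other alternatives 0 to 2 in both. Array weights or leaving out 1 sclera array gave at most 1 call in sclera against 0. In signal over background, 6 of 7 members lay below the detection limit, where a level has only a bound.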
